A study of Mus musculus with 9 samples.

Results

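The genes described here are 10 core regulators of the G1 phase of the cell cycle: the D-type cyclin genes Ccnd1, Ccnd2 and Ccnd3, their kinase genes Cdk4 and Cdk6, the E-type cyclin genes Ccne1 and Ccne2, their kinase gene Cdk2, and the inhibitor genes Cdkn1b (p27) and Cdkn2a (p16 and p19ARF). They were chosen by gene name, and all 10 were among the 48230 genes kept from the deposited table. RNA was sequenced in 9 libraries of BeCon cells, which are mouse ovarian tumor cells. Of these, 4 came from ascites of B6 mice that carried the tumor and received YKL-05-099, which inhibits salt-inducible kinases, 1 came from BeCon cells in culture, and 4 came from ascites of B6 mice with the tumor that received vehicle. Cells from ascites had been sorted as viable, CD45-negative and MHC class I-positive. The labels give no dose, treatment time or age, and leave unsaid whether mice were pooled, so a p-value here reflects only how far the libraries of a group vary. Library names of each mouse group share their own first number, and a cage or batch behind it cannot be told apart from treatment.

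Cells commit to division in G1. Growth signals raise D-type cyclins, which bind CDK4 or CDK6 and begin to phosphorylate the retinoblastoma protein RB. This frees E2F transcription factors, which switch on the genes of cyclin E and of DNA replication, and cyclin E with CDK2 completes the phosphorylation of RB. Inhibitors of the INK4 kind, such as p16, block CDK4 and CDK6, while p27 and p21 bind cyclin-CDK complexes and restrain CDK2. The 3 D-type cyclins do much the same work, and tissues and tumors differ in which of them they use.

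Values are FPKM (fragments per kilobase of transcript, relative to the depth of the library), a scale corrected for transcript length. Depth was roughly 23000000 to 35000000 fragments per library, and the FPKM of a library summed to between 453169 and 482851. The tumor and mesothelial-type marker Wt1 was at 501 to 529 FPKM in YKL-05-099 libraries, 373 FPKM in the cultured library and 551 to 565 FPKM in vehicle libraries, while Pax8 and Epcam stayed below 1 FPKM throughout. Other markers of this list ran the other way, with Krt18 at 240.6 to 251.4 FPKM in YKL-05-099, 155.8 FPKM in culture and 166.1 to 176.8 FPKM in vehicle, and Upk3b at 580.3 to 632.7 FPKM in YKL-05-099, 118.3 FPKM in culture and 548 to 574.6 FPKM in vehicle. Of its 7 tested markers 1 was called higher and 2 lower, where 28.0% and 15.1% of all tested genes were called higher and lower. Ptprc, which encodes CD45, was at 0.0308 to 0.276 FPKM in YKL-05-099, listed at 0 in the cultured library, and at 0.346 to 0.772 FPKM in vehicle libraries. Macrophage transcripts were present and uneven. The summed FPKM of 9 macrophage markers ran from 19.1 to 72.0 in YKL-05-099 libraries and was 10.1 in the cultured library. In vehicle libraries this sum ran from 130.4 to 283. Of the 7 markers tested 6 were called lower after treatment, beside 15.1% of all tested genes. The sum of 15 pan-leukocyte markers ran from 20 to 36.3 in YKL-05-099, was 14.4 in the cultured library with 6 markers at 0, and ran from 50.9 to 99.8 in vehicle libraries. The sum of 6 B cell markers ran from 0.600 to 1.41 FPKM in YKL-05-099 libraries, was 0.449 FPKM in culture and ran from 12.5 to 48.9 FPKM in vehicle libraries, and both markers tested were called lower. The summed T cell markers stayed between 0.681 and 1.64 FPKM in YKL-05-099, at 0.947 FPKM in culture and between 0.930 and 1.02 FPKM in vehicle libraries.

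Across the tested genes, limma called 43.2% at an adjusted p under 0.05, with 28.0% higher and 15.1% lower in YKL-05-099 cells. Of the 10 G1 genes 8 passed the filter on low values, with 4 called higher (Ccnd3, Ccne2, Cdk2 and Cdkn1b), 2 called lower (Ccnd1 and Ccnd2) and 2 not called (Cdk4 and Cdk6). Ccne1 and Cdkn2a did not pass the filter. The median log2 fold change of the 8 genes was 0.16, against 0.05 for all tested genes. The values of both mouse groups did not overlap for 4 of the 8, against 40.0% of all tested genes. So 6 of the 8 members were called in a comparison that called 43.2% of all tested genes.

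**Figure D1:**
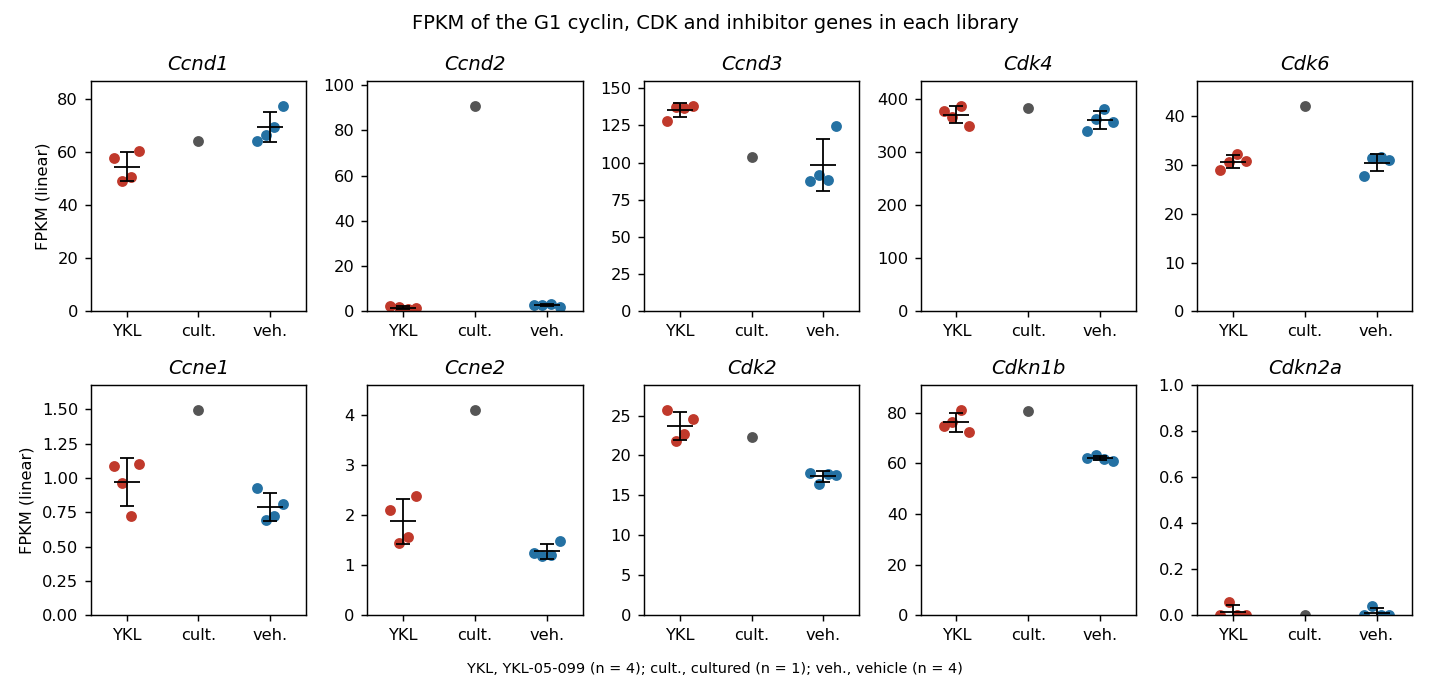
FPKM of each of the 10 genes (linear vertical axes starting at 0, a scale of its own per gene) in the YKL-05-099 libraries (red, n = 4), the cultured library (grey, n = 1) and the vehicle libraries (blue, n = 4), with bars for mean ± SD of the mouse groups. Ccnd2 stands at 90.8 FPKM in culture and at 3.18 FPKM or less in every mouse library, and Ccnd1 and Ccnd3 separate the mouse groups in opposite directions.

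The promoter windows of the 3 members that were called higher and have an entry in the RefSeq table are shown first, with the letters searched for in capitals. RefSeq on GRCm38.p6 gave 9 windows for 7 of the members. Ccnd1, Ccnd2 and Ccne2 are named only. The motifs, looked for on both strands, were the cAMP response element TGACGTCA, its first letters TGACG, which lie within it, the AP-1 motif TGACTCA, and the E2F motifs TTTCGCGC, TTTGGCGC, TTTCCCGC and TTTGCCGC. Each sequence runs 5′ to 3′ on the strand of its gene. The Ccnd3 windows are from the plus strand, at chr17:47504801-47505100 for the first start and chr17:47593217-47593516 for the second, the Cdk2 window is from the minus strand at chr10:128705002-128705301, and the Cdkn1b window is from the plus strand at chr6:134920151-134920450.
Ccnd3, first start: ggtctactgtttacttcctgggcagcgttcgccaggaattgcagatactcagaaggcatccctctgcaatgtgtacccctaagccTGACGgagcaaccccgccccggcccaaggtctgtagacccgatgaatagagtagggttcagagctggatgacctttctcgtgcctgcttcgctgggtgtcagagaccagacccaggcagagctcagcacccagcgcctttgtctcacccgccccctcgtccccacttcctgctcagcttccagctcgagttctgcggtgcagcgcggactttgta
Ccnd3, second start: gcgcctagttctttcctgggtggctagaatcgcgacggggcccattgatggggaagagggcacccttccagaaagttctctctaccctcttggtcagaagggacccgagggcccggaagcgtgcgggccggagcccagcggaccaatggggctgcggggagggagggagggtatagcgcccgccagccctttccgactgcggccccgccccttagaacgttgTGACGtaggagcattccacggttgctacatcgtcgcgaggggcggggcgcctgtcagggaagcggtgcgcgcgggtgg
Cdk2: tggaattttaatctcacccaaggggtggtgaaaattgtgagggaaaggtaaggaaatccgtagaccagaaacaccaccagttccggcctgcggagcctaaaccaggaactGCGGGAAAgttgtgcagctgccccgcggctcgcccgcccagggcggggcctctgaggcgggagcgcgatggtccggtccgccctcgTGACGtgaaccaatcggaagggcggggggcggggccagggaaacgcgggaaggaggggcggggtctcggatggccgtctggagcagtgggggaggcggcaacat
Cdkn1b: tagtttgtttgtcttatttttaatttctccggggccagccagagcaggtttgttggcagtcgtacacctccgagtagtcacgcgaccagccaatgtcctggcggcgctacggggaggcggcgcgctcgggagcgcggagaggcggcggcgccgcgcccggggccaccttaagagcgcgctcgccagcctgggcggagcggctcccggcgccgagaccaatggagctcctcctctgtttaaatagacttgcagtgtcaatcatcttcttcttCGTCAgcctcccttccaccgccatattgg

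The short motif TGACG was found in 6 of the 9 windows, those of Ccnd3 (165 and 28 bases before the first and second start), Cdk4, Cdk6, Cdk2 (54 bases before the start) and Cdkn1b (from 21 bases after the start, on the opposite strand). It is also in 20.8% of all 32851 windows of the table. The 9 windows had a GC content of 59.3% to 77%, and the share over all windows was not matched for that. Ccnd3 also counts with both its windows, so no enrichment can be read from these figures. The full TGACGTCA was in none of the 9 and in 1.79% of all windows, and the AP-1 motif in none of the 9 and in 5.2% of all. The E2F motif TTTCCCGC was found in the Cdk2 window (140 bases before the start, on the opposite strand, printed as GCGGGAAA) and in the upstream Cdkn2a window, and is in 1.07% of all windows. The other 3 E2F motifs were in none of the 9 windows and in 0.323% to 0.514% of all. These matches describe letters and not binding.

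Among the D-type cyclins, Ccnd1 was lower and Ccnd3 was higher in YKL-05-099 cells, and their sum overlapped between the mouse groups. Ccnd1 (chromosome 7, 144929931 to 144939925, minus strand) encodes cyclin D1, the D-type cyclin most often raised by growth factor signals. It stood at 57.7, 49.3, 50.7 and 60.4 FPKM in the YKL-05-099 libraries, at 64.1 FPKM in the cultured library, and at 64.3, 66.5, 69.4 and 77.5 FPKM in the vehicle libraries. All 4 YKL-05-099 values lay below all vehicle values, and the cultured value lay between both groups. The mean was 54.5 ± 5.36 FPKM in YKL-05-099 and 69.4 ± 5.77 FPKM in vehicle (SD, n = 4 each), and the log2 fold change was -0.34 (SE 0.0779, limma adjusted p = 0.00603). The call held in each of the alternatives tried, and when the average pan-leukocyte marker level was added as a covariate the log2 fold change was -0.65 (limma adjusted p = 0.0059). That covariate did not overlap between the groups, and with it the median standard error over all genes was 0.125 against 0.0697.

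Within each mouse group Ccnd1 was higher in the 2 libraries with the smaller sum of macrophage markers. In YKL-05-099 these were replicates 1 and 4, with macrophage sums of 19.1 and 21.0 FPKM and Ccnd1 at 57.7 and 60.4 FPKM, beside 67.7 and 72.0 FPKM and Ccnd1 at 49.3 and 50.7 FPKM in replicates 2 and 3. In vehicle they were replicates 3 and 4, with sums of 130.4 and 135.9 FPKM and Ccnd1 at 69.4 and 77.5 FPKM, beside 206.7 and 283 FPKM and Ccnd1 at 64.3 and 66.5 FPKM in replicates 1 and 2. Between the groups both the macrophage sum and Ccnd1 were lower in YKL-05-099. These orders were read from the values and not tested. YKL-05-099 replicates 1 and 4 were also the 2 highest of their group for Cdk2, Ccne1 and Ccne2, and the 2 lowest for Cdkn1b. The part of other cells in these values was not tested. In sorted bulk samples fewer cells of a type and less RNA per cell cannot be told apart.

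Ccnd3 (chromosome 17, 47505051 to 47599691, plus strand) encodes cyclin D3 and was the most abundant D-type cyclin transcript in all 9 libraries. It reached 128, 137, 137 and 138 FPKM in YKL-05-099 libraries, 104 FPKM in culture, and 87.9, 91.8, 88.6 and 124 FPKM in vehicle libraries. The groups did not overlap, but vehicle replicate 4 stood close to the treated libraries and far from the rest of its own group. The means were 135.0 ± 4.65 FPKM in YKL-05-099 and 98.2 ± 17.6 FPKM in vehicle, and the log2 fold change was 0.47 (SE 0.1003, limma adjusted p = 0.00445). Without vehicle replicate 4 the log2 fold change was 0.59 (limma adjusted p = 1.48e-05). With the pan-leukocyte covariate it was 0.32 and no longer called (limma adjusted p = 0.338).

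Ccnd2 (chromosome 6, 127125162 to 127152193, minus strand), which encodes cyclin D2, was near the bottom of expressed genes in the mouse libraries and high in culture. It was at 2.40, 1.83, 1.05 and 1.64 FPKM in YKL-05-099 libraries, at 90.8 FPKM in the cultured library and at 3.00, 2.82, 3.18 and 1.94 FPKM in vehicle libraries. The mouse groups overlapped, and the cultured value was 52.5 times the YKL-05-099 mean and 33.2 times the vehicle mean. By rank over all genes Ccnd2 was 11131st in YKL-05-099, 961st in culture and 10314th in vehicle. The cultured library, in which Ptprc and 5 further pan-leukocyte markers were listed at 0, has no replicate.

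Between the mouse groups Ccnd2 was called lower by a narrow margin, at 1.73 ± 0.557 FPKM in YKL-05-099 and 2.74 ± 0.550 FPKM in vehicle. The log2 fold change was -0.66 with 0.1 added to FPKM before the log2, and -0.46 with the 1 used here (95% interval -0.82 to -0.10, limma adjusted p = 0.0413). The call was lost when any 1 of YKL-05-099 replicates 2, 3 or 4 or vehicle replicates 1, 2 or 3 was left out, with limma adjusted p between 0.0644 and 0.102 in those 6 fits. It was also lost with no filter on low values (limma adjusted p = 0.121) and with the pan-leukocyte covariate (0.318). Macrophage, pan-leukocyte and B cell markers were lower in the same treated libraries, with B cell sums of 0.600 to 1.41 FPKM in YKL-05-099 and 12.5 to 48.9 FPKM in vehicle, and their part in this low value was not tested.

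**Figure D2:**
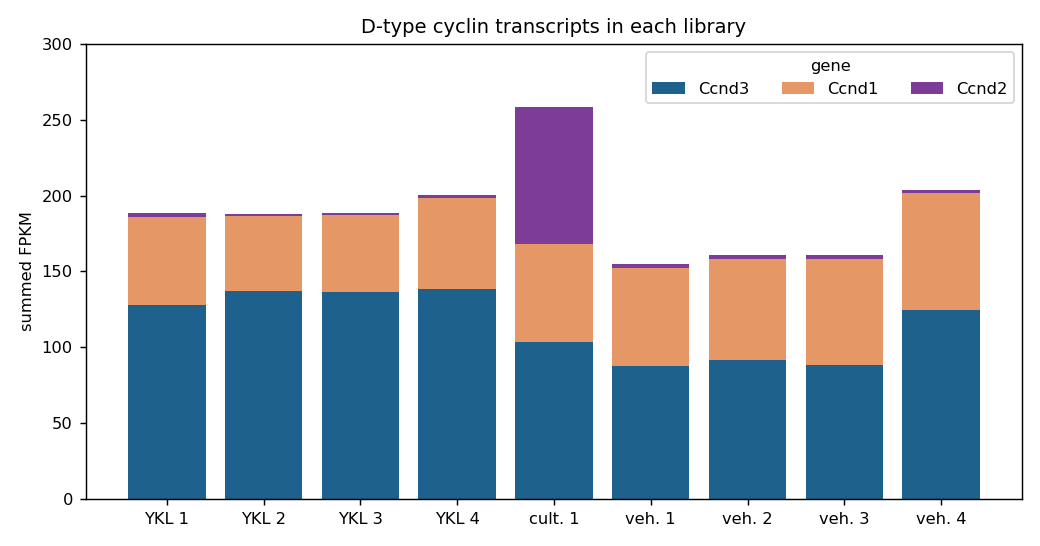
Summed FPKM of the 3 D-type cyclin genes in each library (bars stacked from Ccnd3 at the bottom to Ccnd2 at the top, YKL for YKL-05-099, cult. for cultured and veh. for vehicle, with replicate numbers). Ccnd3 makes up 68.0% to 72.8% of the sum in YKL-05-099 libraries, 40.1% in culture and 54.96% to 61.0% in vehicle libraries, and Ccnd2 is a thin strip in every bar but the cultured one.

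In the makeup of the D-type cyclin pool, the shares of Ccnd1 and Ccnd3 did not overlap between the mouse groups. Ccnd1 made up 26.2% to 30.7% of the summed FPKM in YKL-05-099 libraries, 24.8% in culture and 38.0% to 43.1% in vehicle libraries. Ccnd2 made up 0.559% to 1.28% of it in YKL-05-099, 35.1% in culture and 0.953% to 1.98% in vehicle. The ratio of Ccnd3 to Ccnd1 was 2.22 to 2.78 in YKL-05-099 libraries, 1.62 in culture and 1.28 to 1.61 in vehicle libraries, without overlap between the mouse groups. The sum itself was 188.3, 188.2, 188.5 and 200.1 FPKM in YKL-05-099, 258.6 FPKM in culture and 155.2, 161.1, 161.1 and 203.8 FPKM in vehicle. Vehicle replicate 4 had the highest sum of the mouse libraries, so the groups overlapped in the sum, as they did in the share of Ccnd2, and not in the shares of Ccnd1 and Ccnd3. These shares and ratios combine chosen genes and were given no test.

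The kinase partners of the D-type cyclins did not show a treatment difference. Cdk4 (chromosome 10, 127063534 to 127067920, plus strand) was the most abundant of the 10 transcripts, at 376, 366, 387 and 349 FPKM in YKL-05-099, 382 FPKM in culture and 339, 361, 381 and 356 FPKM in vehicle libraries. Its values overlapped throughout, and the log2 fold change was 0.04 (95% interval -0.08 to 0.16, limma adjusted p = 0.558). Cdk6 (chromosome 5, 3341485 to 3531008, plus strand) stood at 29.0, 30.6, 32.3 and 30.7 FPKM in YKL-05-099, 42.1 FPKM in culture and 27.8, 31.3, 31.6 and 31.0 FPKM in vehicle. The mouse groups overlapped here too, with a log2 fold change of 0.01 (95% interval -0.11 to 0.13, limma adjusted p = 0.897). These intervals leave room for changes of up to about 0.16 log2 units. Cdk4 transcripts were 11.4 to 13.0 times as abundant as Cdk6 in YKL-05-099, 9.06 times in culture and 11.5 to 12.2 times in vehicle libraries.

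Of the cyclin E arm, Cdk2 and, by a narrow margin, Ccne2 rose, and both E-type cyclin transcripts were low. Cdk2 (chromosome 10, 128697939 to 128705051, minus strand), the kinase that drives entry into S phase, was at 25.7, 21.9, 22.7 and 24.6 FPKM in YKL-05-099, 22.3 FPKM in culture and 17.8, 16.4, 17.7 and 17.6 FPKM in vehicle libraries. Every YKL-05-099 value lay above every vehicle value. Its log2 fold change was 0.42 (SE 0.0582, limma adjusted p = 0.000412), and the limma adjusted p was at most 0.00181 with any single library left out. With the pan-leukocyte covariate the log2 fold change was 0.25 and the call ended (limma adjusted p = 0.13).

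Ccne2 (chromosome 4, 11191351 to 11204779, plus strand), an E-type cyclin gene known as an E2F target, had 2.11, 1.45, 1.57 and 2.39 FPKM in YKL-05-099, 4.10 FPKM in culture and 1.25, 1.17, 1.199 and 1.49 FPKM in vehicle libraries. The groups overlapped by a small margin, and YKL-05-099 replicates 1 and 4 were the highest of the mouse libraries. The log2 fold change was 0.50 with 0.1 added to FPKM before the log2, and 0.33 with the 1 used here (95% interval 0.07 to 0.59, limma adjusted p = 0.0457). This call was lost when any 1 of YKL-05-099 replicates 1 or 4 or vehicle replicates 1, 2 or 3 was left out (limma adjusted p 0.085 to 0.114), and after median-of-ratios scaling (0.0671) or with no filter (0.109). With the pan-leukocyte covariate the value turned to -0.05 (limma adjusted p = 0.89). Ints8, which lies on the opposite strand of the same locus, was at 8.66 to 11.9 FPKM, above Ccne2 in every library, and whether counting used strand is not given in the sources used here.

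Ccne1 (chromosome 7, 38097984 to 38107534, minus strand), the other E-type cyclin gene, was the lowest of the detected members. It had 1.09, 0.965, 0.723 and 1.10 FPKM in YKL-05-099, 1.498 FPKM in culture and 0.928, 0.697, 0.727 and 0.814 FPKM in vehicle libraries. Both mouse groups overlapped, only 2 mouse libraries reached an FPKM of 1, and the gene was therefore not tested. With no filter its log2 fold change was 0.13 (limma adjusted p = 0.326). The ratio of Ccne2 to Ccne1 was 1.499 to 2.17 in YKL-05-099, 2.74 in culture and 1.34 to 1.83 in vehicle libraries.

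Cdkn1b was higher in YKL-05-099 cells, and Cdkn2a was practically undetected in all groups. Cdkn1b (chromosome 6, 134920401 to 134925513, plus strand) encodes p27, an inhibitor that is held in check mainly by protein breakdown. It was at 74.7, 76.3, 81.1 and 72.2 FPKM in YKL-05-099, 80.5 FPKM in culture and 62.2, 63.3, 61.7 and 61.1 FPKM in vehicle libraries. All treated values and the cultured value lay above the narrow vehicle range. The log2 fold change was 0.29 (SE 0.0436, limma adjusted p = 0.000714), it held in each alternative tried, and it was 0.40 with the pan-leukocyte covariate (limma adjusted p = 0.0162). Cdkn1b and Cdk2 rose to 1.23 and 1.36 times their vehicle means, and the ratio of Cdkn1b to Cdk2 overlapped, at 2.91 to 3.58 in YKL-05-099, 3.60 in culture and 3.48 to 3.85 in vehicle libraries.

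Cdkn2a (chromosome 4, 89274471 to 89294653, minus strand), whose alternative first exons give the RB-pathway inhibitor p16 and the p53-pathway protein p19ARF, was listed at 0 in 7 of the 9 libraries. The exceptions were 0.0574 FPKM in YKL-05-099 replicate 2 and 0.0406 FPKM in vehicle replicate 2. At the approximate depth and the annotated transcript lengths, each is worth about 1 fragment. A gene-level value does not tell the p16 and p19ARF transcripts apart.

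**Figure D3:**
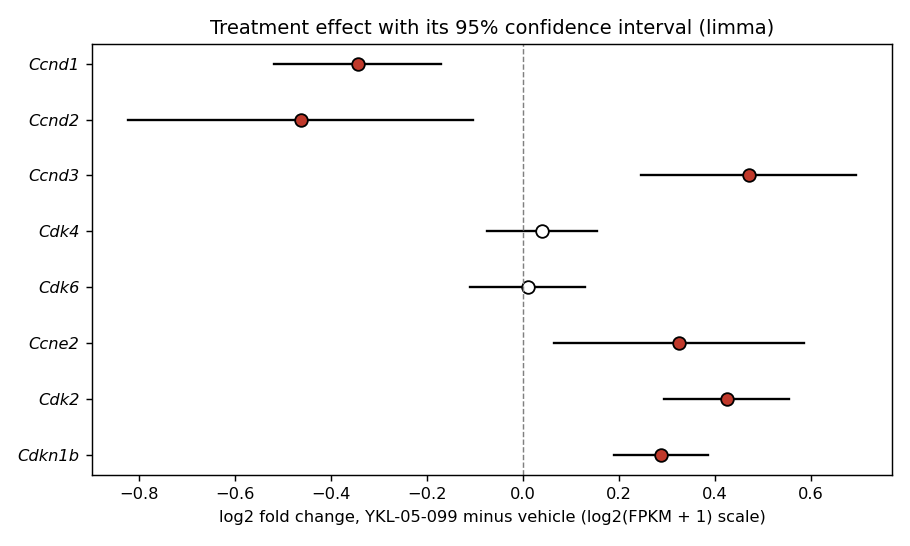
Log2 fold change of the 8 tested members in YKL-05-099 against vehicle (horizontal axis, log2(FPKM + 1) scale), with 95% confidence intervals from limma. Filled points are called at an adjusted p under 0.05 over all genes, and open points are not. The intervals of Cdk4 and Cdk6 include 0, and that of Ccnd2, from -0.82 to -0.10, is the widest.

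Because FPKM is corrected for length, the members can be ordered by level. In YKL-05-099 libraries the order of means was Cdk4, Ccnd3, Cdkn1b, Ccnd1, Cdk6, Cdk2, Ccne2, Ccnd2, Ccne1 and Cdkn2a. In vehicle libraries Ccnd1 (64.3 to 77.5 FPKM) stood above Cdkn1b (61.1 to 63.3 FPKM), whereas in YKL-05-099 libraries Cdkn1b (72.2 to 81.1 FPKM) stood above Ccnd1 (49.3 to 60.4 FPKM), and the ranges did not overlap within either group. Ccne2 and Ccnd2 overlapped in YKL-05-099, at 1.45 to 2.39 and 1.05 to 2.40 FPKM, and so could not be ordered there, while in vehicle Ccnd2 was above Ccne2 in every library. Other neighbours in the order had ranges without overlap, apart from Ccnd2 and Ccne1 in YKL-05-099.

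Set against vehicle cells, the cultured library was apart in 1 member, Ccnd2, with a log2 difference of 4.63, where 5.14% of 12296 genes were apart, 2.08% higher and 3.06% lower. Apart means that all 8 mouse libraries lay on 1 side of the cultured value and the group mean was 2 or more log2 units away. Log2 differences here are of log2(FPKM + 1), which makes them smaller for genes at a few FPKM. Ccne2 was 1.17 log2 units higher in culture than the vehicle mean, Ccne1 0.48, Cdk6 0.46, Cdkn1b 0.37, Cdk2 0.34, Ccnd3 0.09 and Cdk4 0.09, and Ccnd1 was at -0.11. Among these, Ccnd2, Ccne2, Ccne1 and Cdk6 were above all 8 mouse libraries, a position that 37.4% of genes had, and none was below all 8, where 36.2% of genes were. Against cultured cells, YKL-05-099 cells differed by -5.09 log2 units in Ccnd2 and by less than 1 in every other member on that scale. In that comparison 4.97% of genes were apart. By plain FPKM, Ccne2 in culture was 2.19 times its YKL-05-099 mean and 3.21 times its vehicle mean. Both comparisons use the same cultured library, which has no replicate.

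Of the RB pocket protein genes, 1 of 3 was called, where 43.2% of all tested genes were called. Rbl1 (p107), itself an E2F target, had 11.8 to 14.6 FPKM in YKL-05-099, 14.5 FPKM in culture and 8.13 to 10.2 FPKM in vehicle (log2 fold change 0.48, limma adjusted p = 0.00162). Rb1 stood at 9.41 ± 0.832 FPKM in YKL-05-099 and 8.95 ± 0.813 FPKM in vehicle, and Rbl2 at 17.4 ± 1.05 FPKM in YKL-05-099 and 16.7 ± 0.881 FPKM in vehicle, and neither was called. Of 10 E2F and DP factor genes 5 were called higher and 1, E2f4, lower, where 28.0% and 15.1% of all tested genes were called higher and lower. E2f8 and E2f7, which encode atypical repressors of E2F targets, averaged 5.24 ± 1.02 and 3.19 ± 0.503 FPKM in YKL-05-099, against 2.09 ± 0.431 and 1.59 ± 0.112 FPKM in vehicle. E2f1, an activator, averaged 14.6 ± 1.32 FPKM in YKL-05-099 and 8.66 ± 0.330 FPKM in vehicle (log2 fold change 0.69, limma adjusted p = 6.29e-05). The median log2 fold change of the 10 was 0.16. With the pan-leukocyte covariate the calls of Rbl1 (0.19, limma adjusted p = 0.36), E2f8 (0.55, 0.0946) and E2f7 (0.41, 0.136) ended and that of E2f1 did not (0.69, 0.0185).

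The inhibitor genes outside the member list did not move as one. Cdkn2d (p19INK4d) was at 17.5 ± 1.92 FPKM in YKL-05-099, 39.8 FPKM in culture and 10.4 ± 1.03 FPKM in vehicle (log2 fold change 0.70, limma adjusted p = 0.000253). Cdkn2c (p18INK4c) was at 67.5 ± 3.60 FPKM in YKL-05-099, 52.3 FPKM in culture and 54.1 ± 4.23 FPKM in vehicle (log2 fold change 0.32, limma adjusted p = 0.00263). Cdkn1a, which encodes p21, fell, to 26.7 ± 1.72 FPKM in YKL-05-099 against 34.9 ± 1.39 FPKM in vehicle (log2 fold change -0.37, limma adjusted p = 0.000522), and stood at 80.8 FPKM in culture. All 3 calls ended with the pan-leukocyte covariate, at 0.46 for Cdkn2d (limma adjusted p = 0.0902), 0.13 for Cdkn2c (0.428) and -0.24 for Cdkn1a (0.141). Cdkn2b (p15) and Cdkn1c (p57) stayed below 0.5 FPKM in all libraries and were not tested. The INK4 transcripts present in these cells were thus those of Cdkn2c and Cdkn2d.

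Of the subunits of the CDK-activating kinase and the phosphatase gene Cdc25a, 4 in all, Mnat1 was called lower (13.2 ± 1.11 FPKM in YKL-05-099 and 15.9 ± 1.24 FPKM in vehicle, log2 fold change -0.26, limma adjusted p = 0.0170) and the other 3 were not called. Of all tested genes 43.2% were called. All 4 genes of this list were above every mouse library in culture, a position that 37.4% of genes had. Among 8 genes for ubiquitin ligase parts that act on G1 cyclins and p27, 3 rose and 1 fell, beside the same 43.2%. These 8 include Fbxw7, which was not called and, as its values below show, was not usable. Skp2 and Cks1b, which together recruit p27 for breakdown, rose to 9.44 ± 0.510 and 49.5 ± 4.02 FPKM in YKL-05-099, against 6.54 ± 0.910 and 37.1 ± 2.14 FPKM in vehicle, while Cul1, the scaffold of the same ligase, was lower at 58.3 ± 3.24 FPKM in YKL-05-099 against 67.5 ± 1.59 FPKM in vehicle (limma adjusted p = 0.00534). Skp2 and Cks1b were at 16.4 and 148.6 FPKM in culture. Adding the pan-leukocyte covariate, the calls of Skp2 (0.21, limma adjusted p = 0.361) and Cks1b (0.28, 0.173) ended, Mnat1 turned to 0.02 (0.914), and Cul1 stayed called (-0.32, 0.0452). Fbxw7, which encodes the receptor for cyclin E, was not usable, with values of 5.54 to 7.01 FPKM in 5 libraries and 3951 to 6702 FPKM in the other 4.

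**Figure D4:**
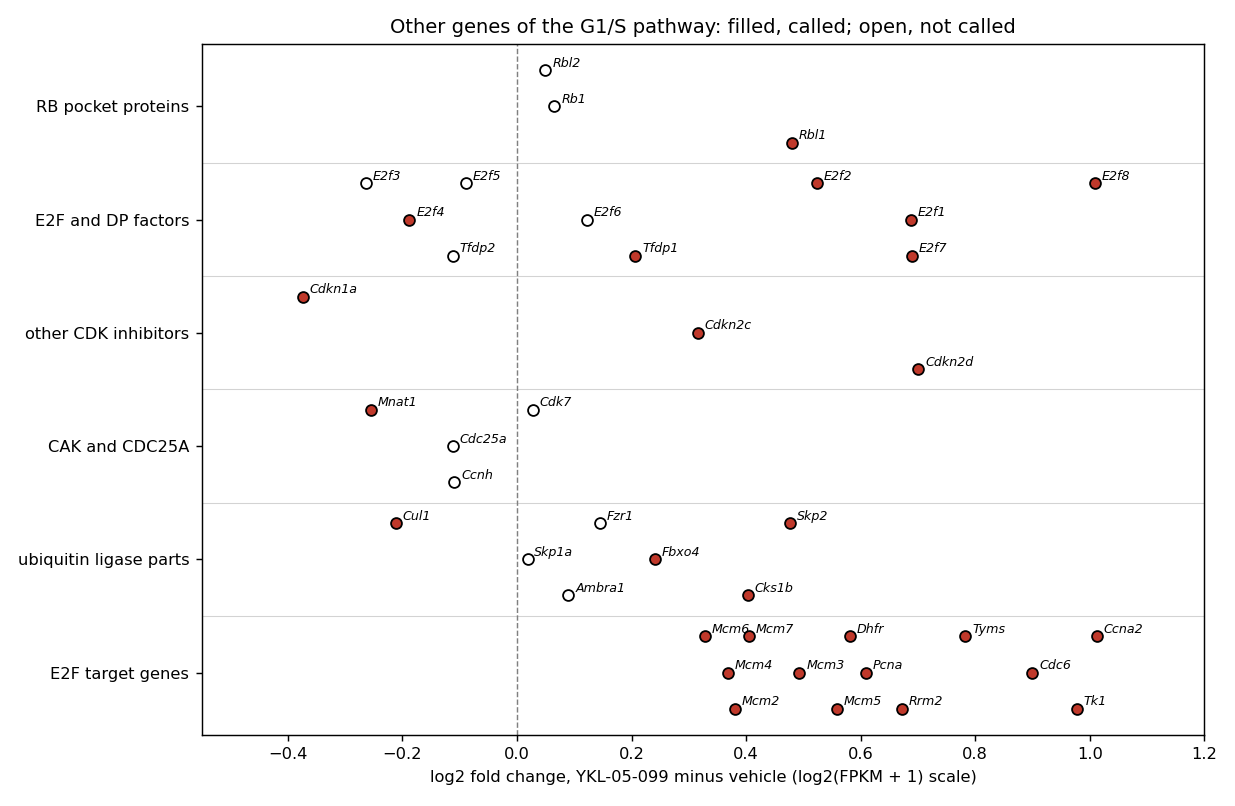
Log2 fold change in YKL-05-099 against vehicle (horizontal axis, log2(FPKM + 1) scale) of the tested genes of the 6 other G1/S lists, without Fbxw7. Filled points are called and open points are not; vertical offsets within a list only separate the labels. All 13 E2F target genes lie to the right of 0, whereas the regulator lists other than the RB pocket proteins lie on both sides.

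All 13 tested E2F target genes were called higher, with a median log2 fold change of 0.58, where 28.0% of all genes were called higher. The list was chosen with earlier results of these data known, so this count is a description and not independent support. Pcna, the sliding clamp of DNA replication, averaged 103.6 ± 6.88 FPKM in YKL-05-099 and 67.55 ± 3.75 FPKM in vehicle (log2 fold change 0.61, limma adjusted p = 5.97e-05). Ccna2, the cyclin of S phase, averaged 35.7 ± 4.53 FPKM in YKL-05-099 and 17.2 ± 2.11 FPKM in vehicle, and Tk1, a thymidine-salvage kinase gene, 32.0 ± 4.26 FPKM in YKL-05-099 and 15.8 ± 2.13 FPKM in vehicle. Across the 5 lists of regulators, Fbxw7 included, 11 of 28 tested genes were called higher and 4 lower, with a median of 0.11. With the pan-leukocyte covariate 4 of the 13 E2F targets were called higher, and 1 regulator was called in each direction. In that fit 506 of all 11788 tested genes were called higher and 290 lower. Its median standard error over all genes was 0.125, against 0.0697 without the covariate.

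The genes most like 3 of the members in pattern were found by Pearson correlation of log2(FPKM + 1) over the 9 libraries, among 9003 genes with a mean of at least 5 FPKM. The points share a single cultured library and 2 mouse groups, and no p is given. For Ccnd1 these were Smad6 (r = 0.958) and Fbxo11 (0.948), both lower in YKL-05-099 than in vehicle by their means. For Ccnd2 they were Elp3 (0.998), Elk3 (0.996) and Fam114a1 (0.994), which stood at 39.8, 32.5 and 64.7 FPKM in culture, and these correlations rest on that 1 library. For Ccne2 they were Smpd1 (0.991), Canx (0.990) and Gsta4 (0.987). These 3 stood at 27.5, 247.1 and 138.9 FPKM in culture, above their means in both mouse groups, as did Ccne2. Their correlations thus also lean in part on that 1 library.

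Several members share their locus with a gene on the opposite strand. Tspan31 overlaps Cdk4 and was at 106.4 to 151.7 FPKM, LTO1 overlaps Ccnd1 at 8.80 to 12.05 FPKM, and Bysl overlaps Ccnd3 at 5.11 to 8.61 FPKM. The library kit marks strand, but without knowing how reads were assigned, the values of Cdk4 and Ccne2, whose partners are a sizeable part of or exceed their own level, are the least certain of the set in this respect.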

How the data were processed

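mRNA libraries of a kit that marks strand were made from BeCon tumor cells, 4 per mouse group and 1 from culture. The deposited values are FPKM (fragments per kilobase of transcript, relative to depth) per gene and library, computed by the authors, and each has a status column, per the file headers. GRCm38 and bcl2fastq 2.19 are named in the submitters' processing notes. Aligner, counting program and use of strand: not given in the sources used here. Of 48302 rows, 65 repeated gene identifiers and 7 genes with a failed estimate were left out, leaving 48230 genes. FPKM are not counts. The smallest values of 4263 genes with 1 transcript of at least 2 kb put the depth at roughly 23000000 to 35000000 fragments per library, and intervals that need exact counts were therefore not given.

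Groups and replicate numbers came from the sample titles. YKL-05-099 was compared with vehicle by fitting log2(FPKM + 1) in limma 3.58.1 (R 4.3.3) with a trended prior variance, unpaired and without rescaling. Genes entered the fit, 11788 in all, if 4 or more of the 8 mouse libraries reached an FPKM of 1, with Benjamini-Hochberg adjustment over all of them and calls under 0.05. The cultured library has no replicate. It counted as apart where every mouse library lay on the same side of it and the compared group's mean was 2 or more log2 units away. Functions were tested on simulated data. The members, the gene lists and the alternatives were chosen with earlier results of these data known. All 10 members are named, as are up to 3 called genes per list with the smallest p, Cdkn1a, and the 3 genes most like Ccnd1, Ccnd2 and Ccne2 in pattern, of which 1 is not reported here. Fbxo31 and Cdt1 were listed but not analysed here. Promoter windows (250 bases before to 50 after a start) are from RefSeq on GRCm38.p6, and gene coordinates are from the deposited table on GRCm38, counted from 1.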

Additional observations from a re-analysis of the deposited data

Results flagged for a closer look

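In groups of 4 libraries, a library was set aside for a closer look where its gap to the nearest other library relative to the whole range of its group passed Dixon's critical value. This was so for 12 of 106 pairs of gene and mouse group (11.3%), where chance gives about 1 in 20. For Ccnd3, vehicle replicate 4 was at 124.4 FPKM with the others at 87.9 to 91.8 FPKM, and YKL-05-099 replicate 1 was at 128.1 FPKM with the others at 136.7 to 138.2 FPKM. For Cdk6, vehicle replicate 1 was at 27.8 FPKM with the others at 31.0 to 31.6 FPKM. The Cdkn2a values of 0.0574 FPKM in YKL-05-099 replicate 2 and 0.0406 FPKM in vehicle replicate 2 stood out only because the other libraries were listed at 0, as did Cdkn1c at 0.0188 FPKM in YKL-05-099 replicate 4.

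Vehicle replicate 4 was also the library apart for Cdkn2c, at 60.4 FPKM with the others at 51.7 to 52.4 FPKM, and for Tfdp1, at 33.4 FPKM with the others at 29.7 to 30.1 FPKM, in each case on the side of the YKL-05-099 libraries. Vehicle replicate 1 was apart for E2f5, at 11.3 FPKM with the others at 10.3 to 10.5 FPKM, and for Mcm6, at 66.8 FPKM with the others at 62.5 to 62.8 FPKM. YKL-05-099 replicate 4 was apart for E2f2, at 2.51 FPKM with the others at 1.61 to 1.74 FPKM. Fbxw7 was at 5017 FPKM in vehicle replicate 4 with the others at 5.78 to 6.19 FPKM, and YKL-05-099 replicates 1, 3 and 4 had values of the same order. The cause of that split was not tested.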

How the results depend on the processing

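The calls of Ccnd1 and Cdkn1b kept their direction and their side of the threshold under each alternative, and those of Ccnd3 and Cdk2 did so under all but the pan-leukocyte covariate. With that covariate 506 genes were called higher and 290 lower (3304 and 1785 without it), with 1 member in each direction, 1 other regulator in each direction and 4 E2F targets higher, and the median standard error was 0.125 against 0.0697. In that fit Ccnd2 was at -0.55, Ccnd3 at 0.32, Cdk2 at 0.25, Ccne2 at -0.0516 and Mnat1 at 0.0212, none of them called. With no filter Ccnd2 (-0.46) and Ccne2 (0.33) were not called and 1 member was called lower, as with a mean FPKM of at least 5, where neither gene was tested. Median-of-ratios scaling put Ccne2 at 0.30 (not called), Cdk4 at -0.0102 and Cdk6 at -0.0390, and 52.4% of all calls were then higher instead of 64.9%. A pseudocount of 0.1 put Ccne1 at 0.25, and Ccnd2 and Ccne2, both still called, at -0.66 and 0.50.

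Leaving out 1 library at a time gave 3 to 4 members higher and 1 to 2 lower, with log2 fold changes of -0.58 to -0.33 for Ccnd2, 0.24 to 0.40 for Ccne2 and -0.0319 to 0.0357 for Cdk6. The cultured library was apart from vehicle for 632 genes, for 2482 at 1 log2 unit (2 members, Ccnd2 and Ccne2) and for 1240 with a pseudocount of 0.1. Same-numbered libraries of both mouse groups deviated together at r = -0.018, 0.133, -0.047 and 0.172, so the numbers were not taken as pairs, and with the replicate block 4830 genes were called and every member kept its call. The cause of these differences between settings was not tested. Ccne1 and Cdkn2a did not pass the filter on low values, and Ccnd2 and Ccne2 were at about 1 to 3 FPKM in the mouse libraries. The part of depth in how these genes vary was not tested.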

Other observations

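The neighbours of Cdkn2a on chromosome 4 were looked up after its values were seen. Mtap, the nearest gene looked up on the side of lower coordinates (89137122 to 89181081), which encodes an enzyme of methionine salvage, was at 34.5, 33.0, 32.0 and 36.5 FPKM in YKL-05-099, 183 FPKM in culture and 38.6, 41.3, 39.1 and 42.5 FPKM in vehicle libraries. Cdkn2b, on the other side (89306289 to 89311032), was at most 0.0246 FPKM in YKL-05-099, listed at 0 in culture and at most 0.105 FPKM in vehicle libraries. Dmrta1, beyond it, was at most 0.00946 FPKM in YKL-05-099, listed at 0 in culture and at most 0.0306 FPKM in vehicle libraries. Transcripts of both INK4 genes of this locus were thus at or near 0 while Mtap was expressed in all 9 libraries. RNA levels alone do not show the state of the DNA there.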
